A study of Mus musculus with 8 samples.

Results

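Oxidative phosphorylation genes made up 102 of the 33467 genes in the deposited FPKM table. They were taken as the genes annotated to the KEGG oxidative phosphorylation pathway whose symbols begin with Nduf, Sdh, Uqcr, Cyc1, Cox or Atp5, plus the 13 protein-coding genes of mitochondrial DNA. The rule uses no expression value, although it was set with earlier results of these data known. Of the 89 nuclear genes, 76 encode structural subunits, 37 of complex I, 4 of complex II, 9 of complex III, 11 of complex IV and 15 of complex V. The other nuclear genes are 8 isoforms of restricted tissues or conditions, 4 assembly factors of complex IV (Cox10, Cox11, Cox15 and Cox17) and the processed pseudogene Ndufb4c. Ndufa4 is counted with complex I by its symbol, although its protein is now placed in complex IV. Mitochondrial DNA supplies 7 subunits of complex I, 1 of complex III, 3 of complex IV and 2 of complex V. Subunit genes whose rows carry other symbols or lack the pathway annotation fall outside this set.

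The RNA came from whole livers of 8 wild-type C57BL/6J mice, 1 mouse per library. The 4 control mice ate a standard diet for 4 weeks. The other 4 ate a diet with 1% 3,5-diethoxycarbonyl-1,4-dihydrocollidine (DDC) for 4 weeks, a porphyrinogenic compound that injures bile ducts and models cholestasis with biliary fibrosis. The age and sex of the mice were not given in the sources used here.

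Mitochondria make ATP by passing electrons from NADH and succinate along protein complexes of the inner membrane to oxygen. Complex I, the NADH dehydrogenase, and complex II, the succinate dehydrogenase, hand electrons to coenzyme Q, complex III passes them to cytochrome c, and complex IV, cytochrome c oxidase, reduces oxygen. Complexes I, III and IV pump protons, and complex V, the ATP synthase, uses their return to make ATP. Complexes I, III, IV and V join subunits of both genomes, whereas complex II is wholly nuclear-encoded. Hepatocytes are rich in mitochondria and draw on them for urea synthesis, glucose production and fatty acid oxidation.

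The mitochondrial genes lie close together, and 4 pairs of them share bases. The 3 pairs that share more than 1 base are shown because a read that reaches across a shared stretch could be counted for either gene. A further reason is that mt-Nd5 and mt-Nd6 differ from the other mitochondrial messages in the results. The stretches are the ends or starts of the gene named, 5′ to 3′ on its own strand of GRCm38, with the shared bases in capitals.
mt-Atp8 end: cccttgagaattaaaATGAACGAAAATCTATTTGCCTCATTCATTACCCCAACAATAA
mt-Atp6 start: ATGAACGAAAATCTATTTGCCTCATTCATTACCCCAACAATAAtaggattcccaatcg
mt-Nd4l end: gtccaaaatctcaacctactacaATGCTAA
mt-Nd4 start: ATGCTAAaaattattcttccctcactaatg
mt-Nd5 end: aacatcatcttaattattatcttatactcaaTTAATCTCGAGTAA
mt-Nd6 end: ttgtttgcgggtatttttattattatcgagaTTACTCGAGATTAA
The genes mt-Atp8 and mt-Atp6 share 43 bases, chrM:7927-7969, and mt-Nd4l and mt-Nd4 share 7 bases, chrM:10167-10173, each pair on the plus strand. The fourth pair, mt-Atp6 and mt-Co3, shares the 1 base at position 8607, also on that strand. The last 14 bases of mt-Nd5, on the plus strand, and of mt-Nd6, on the minus strand, are the same positions, chrM:13552-13565, read in opposite directions. The strand setting of the counting was not given in the sources used here. Reads of mt-Nd5 that run on past its end and reads of mt-Nd6 therefore cannot be told apart.

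Many nuclear subunit genes are known targets of the transcription factors NRF1 and GABP, and their promoters were searched for the letters these factors bind. RefSeq windows of 300 bases, from 250 before to 50 after the start site in GRCm38.p6, were matched for 71 of the 89 nuclear genes, in 76 windows. The NRF1 core letters CGCANGCG were found on either strand in 28 of the 76 windows, or 36.8%, against 8.21% of all 32851 windows and 13.9% of the 16886 windows of tested genes. The palindromic form CGCATGCG, which is also counted among those cores, was in 9 windows (11.8%, against 1.87% and 3.14%). Stretches of 4 of these 9 promoters are shown as examples from complexes I, IV and V, with the palindromic core in capitals. The promoter of Sdha is shown with them because it holds 3 copies of the core, in capitals, and because Sdha had the largest fall of complex II.
Atp5g2: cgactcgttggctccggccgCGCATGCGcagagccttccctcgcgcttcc
Atp5k: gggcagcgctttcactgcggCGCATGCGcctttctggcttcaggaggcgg
Cox6a1: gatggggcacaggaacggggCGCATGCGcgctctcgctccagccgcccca
Ndufa11: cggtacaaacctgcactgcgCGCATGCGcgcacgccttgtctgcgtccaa
Sdha: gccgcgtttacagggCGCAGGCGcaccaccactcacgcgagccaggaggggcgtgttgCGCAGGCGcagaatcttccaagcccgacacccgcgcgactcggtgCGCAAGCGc
They run from 61 to 12 bases before the start of Atp5g2 (chr15:102671059-102671108, minus strand), from 69 to 20 bases before the start of Atp5k (chr5:108434419-108434468, minus strand), from 181 to 132 bases before the start of Cox6a1 (chr5:115349090-115349139, minus strand), from 79 to 30 bases before the start of Ndufa11 (chr17:56717683-56717732, plus strand) and from 112 to 1 bases before the start of Sdha (chr13:74350241-74350352, minus strand). The GABP letters CCGGAAG were in 18 windows (23.7%, against 8.86% of all and 14.5% of those of tested genes). The YY1 letters AAGATGGC were in 11 (14.5%, against 2.75% and 3.68%), and the letters of the estrogen-related receptors, TGACCTTG, in 4 (5.26%, against 1.56% and 1.23%). A match describes these letters and does not show binding.

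Libraries held 61179103 to 81664058 counts. Levels are given as TMM-scaled CPM, that is, counts over a library total corrected for composition, and fold changes are DDC over control from edgeR's quasi-likelihood test, called at a Benjamini-Hochberg adjusted p under 0.05 over all 19535 genes tested. The composition of the groups differed widely. TMM factors were 0.792 to 0.816 in controls and 1.21 to 1.27 in DDC, and over all tested genes the median log2 fold change was 0.073 with TMM but 0.695 with library totals alone. A TMM-scaled fold change is therefore relative to the bulk of genes, and each result is also given as a share of library counts or with library totals alone where that changes it. All 7 hepatocyte markers (Alb, Apoa1, Apob, Ttr, Hnf4a, Cps1, Cyp2e1) were lower in DDC, with a summed level of 138370 to 164676 CPM in controls and 57691 to 72972 CPM in DDC. All 7 macrophage markers were higher, with a summed level of 209 to 238 CPM in controls and 1539 to 1883 CPM in DDC. So were 5 of 6 cholangiocyte markers, which together held 66.7 to 145 CPM in controls and 699 to 1072 CPM in DDC. DDC 1 stood apart from DDC 2 to 4 in transcripts of heart muscle and germ cells, described with the isoforms, and in the summed level of 5 erythroid markers (698 CPM against 282 to 385 CPM, and 815 to 1007 CPM in controls). It also differed in some immune markers. Cd74 was at 134 CPM against 291 to 351 CPM, a gap of a size that the other listed macrophage markers did not show. The neutrophil marker S100a9 was at 18.9 CPM against 40.3 to 49.1 CPM, whereas Csf3r was higher, at 50.5 CPM against 32.1 to 43.8 CPM. The summed level of 5 Kupffer cell markers was 1184 CPM against 820 to 944 CPM. In whole tissue, fewer cells of a type and less RNA per cell cannot be told apart, and the part of cell makeup in the results was not tested.

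Nuclear genes for the respiratory chain and the ATP synthase were lower in DDC livers across all 5 complexes. Of the 76 nuclear structural subunits, 74 fell, against 26.6% of all tested genes, and each of the 74 was lower in all 4 DDC libraries than in any control, as were 25.7% of all tested genes. The 2 that did not pass were Ndufa7 and Ndufc1, both accessory subunits of complex I. The median log2 fold change of the 76 was -0.81, with a range from -1.36 to -0.24, against 0.07 over all genes tested. With library totals alone 30 of the 76 fell, against 8.96% of all tested genes, 3 rose, against 58.9%, and 43 did not pass. The median was then -0.19 against 0.70 for all genes. Its distance from the median of all genes was -0.88 under both scalings. The change of scaling shifts all genes by nearly the same amount, so this distance could hardly differ. Across the complexes the median was -1.04 for complex II, -0.99 for complex III, -0.93 for complex V, -0.77 for complex I and -0.72 for complex IV. With library totals alone the same medians were -0.42, -0.36, -0.31, -0.15 and -0.09. The 21 catalytic or core subunits had a median of -1.02 and the 55 accessory subunits one of -0.75, with ranges that overlapped.

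**Figure D1:**
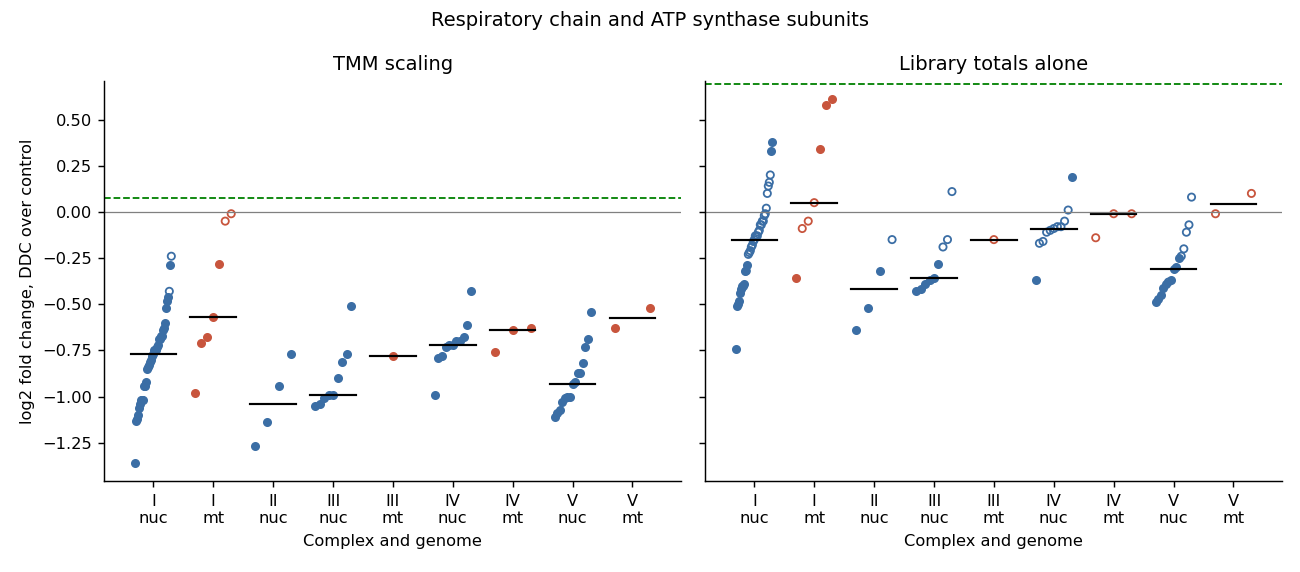
Log2 fold change of each structural subunit, DDC over control, by complex and genome (nuc, nuclear; mt, mitochondrial), with TMM scaling on the left and library totals alone on the right. Filled points passed the test, open points did not, black bars are group medians and the green dashed line is the median of all tested genes (0.073 and 0.695). Nuclear subunits lie from -1.36 to -0.24 with TMM, and every subunit lies under the green line in both panels.

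Shares of library counts do not depend on a scaling factor. The 89 nuclear genes together took 0.848, 0.763, 0.847 and 0.806% of the counts of controls 1 to 4 and 0.738, 0.635, 0.631 and 0.603% of those of DDC 1 to 4. The groups did not overlap, with means of 0.816 ± 0.0401% in controls and 0.652 ± 0.0590% in DDC (SD, n = 4 each). DDC 1 was the DDC library nearest to the controls, and control 2 was the lowest control.

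By complex, the summed level of the 4 complex II genes was 959 ± 50.0 CPM of plain library totals in controls and 692 ± 49.0 in DDC, 0.721 of the control mean. Complex V stood at 0.756 and complex III at 0.787 of the control mean, and the groups did not overlap for these 3 complexes. The nuclear genes of complex I stood at 0.845 and those of complex IV at 0.966 of the control mean, with groups that overlapped. Per share of counts, complex IV was thus the nuclear group whose DDC libraries lay nearest to the controls.

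Levels between genes compare by FPKM only with care, because the length implied by the counts, FPKM and library totals followed the union of all annotated exons. The implied length was 1.037 to 1.068 times the union of GENCODE exons, retained introns included, with a median of 1.038 over the 102 genes. A factor shared by all genes cannot be told apart from length here. For Atp5l, a small membrane subunit of the ATP synthase, the union held 6443 bases and the principal transcript 544, and for Cox4i1 they held 1550 and 765. FPKM of such genes is understated against genes with a single transcript form. Control means of the 76 nuclear subunits ran from 1.95 for Ndufb2 to 287 for Atp5a1, and those of the 13 mitochondrial messages from 368 for mt-Nd3 to 12497 for mt-Co1.

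Complex I takes electrons from NADH through 7 nuclear-encoded core subunits that carry the flavin and the iron-sulfur clusters. All 7 fell, against 26.6% of all tested genes, with log2 fold changes from -1.12 to -0.77. Ndufs7, a core subunit at the coenzyme Q end, was at 53.0, 46.9, 53.4 and 52.4 CPM in controls 1 to 4 and at 26.9, 24.5, 24.1 and 19.3 CPM in DDC 1 to 4 (edgeR log2 fold change -1.12 with SE 0.10, adjusted p = 9.83e-06). Ndufv1, which binds NADH, had a log2 fold change of -1.02 and Ndufs1, the largest iron-sulfur subunit, one of -1.02. The groups did not overlap for any of the 7, whereas 25.7% of all tested genes were lower without overlap. With library totals alone 6 of the 7 also fell, against 8.96% of all tested genes. Ndufv2, at -0.77, was the exception there.

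Among the 30 nuclear accessory subunits of complex I, 28 fell, against 26.6% of all tested genes. Their median was -0.74 and their range the widest among the subunit groups. Ndufb9 had the largest fall of all 76 nuclear subunits. Its level was 110.3, 96.3, 109 and 111 CPM in controls 1 to 4 and 50.1, 41.9, 38.8 and 35.8 CPM in DDC 1 to 4, a 2.56-fold fall (edgeR log2 fold change -1.36 with SE 0.10, adjusted p = 3.71e-06). Every DDC library was under the lowest control, control 2. Ndufb9 (ENSMUSG00000022354) lies on chromosome 15, 58933756 to 58939488 in GRCm38 and encodes a protein of the distal membrane arm. Ndufb10 and Ndufb11, of the same arm, had log2 fold changes of -1.13 and -1.10. The FPKM of Ndufb9 was 80.6 in controls, high among the nuclear complex I subunits.

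The accessory subunits with the smallest changes were Ndufa7, Ndufv3 and Ndufc1. Ndufa7 was at 27.3, 25.2, 29.7 and 33.2 CPM in controls and 28.3, 24.9, 22.8 and 21.8 CPM in DDC (edgeR log2 fold change -0.24 with SE 0.11, adjusted p = 0.0837), and the groups overlapped. It passed as lower without DDC 1 (-0.34, adjusted p = 0.0161) and without control 2 (-0.31, adjusted p = 0.0384), and as higher with library totals alone (0.38, edgeR adjusted p = 0.00651). Ndufc1, a low-level transcript with 6.03 CPM in controls and 4.48 CPM in DDC, had a log2 fold change of -0.43 (edgeR adjusted p = 0.0719) and passed as lower without control 2 (adjusted p = 0.0287). Ndufv3, a small subunit of the NADH-binding module, fell by 0.29 on the log2 scale and was higher with library totals alone (0.33). The position of these 3 against the other subunits of the same complex does not depend on the scaling, whereas the sign of their change does.

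Complex II links the citric acid cycle to the chain and has 4 subunits, all of which fell without overlap of the groups. Over all tested genes 25.7% were lower without overlap. Sdha, the flavoprotein that oxidizes succinate (ENSMUSG00000021577, chromosome 13, 74322254 to 74350280), was at 582, 574, 606 and 576 CPM in controls 1 to 4 and 279.5, 244, 224 and 226 CPM in DDC 1 to 4. Its level in DDC was under that of the lowest control in every library, a 2.40-fold fall (edgeR log2 fold change -1.27 with SE 0.08, adjusted p = 1.14e-06). Sdhb, the iron-sulfur subunit, fell 2.20-fold from 187 ± 17.0 to 85.2 ± 9.95 CPM (a log2 change of -1.14). The membrane anchors Sdhd and Sdhc had smaller log2 fold changes than the catalytic subunits, -0.94 and -0.77 with SEs of 0.08 and 0.06, a difference that was not tested. With library totals alone Sdha (-0.64), Sdhb (-0.52) and Sdhd (-0.32) still fell and Sdhc (-0.15) did not pass.

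All 9 nuclear subunits of complex III fell, against 26.6% of all tested genes. The Rieske iron-sulfur protein Uqcrfs1, which takes the first electron from coenzyme Q, was at 201, 169, 195 and 200.4 CPM in controls and 106, 94.1, 86.0 and 83.7 CPM in DDC, with no overlap (edgeR log2 fold change -1.05 with SE 0.09, adjusted p = 9.32e-06). Cyc1, cytochrome c1, fell 2.02-fold from 174 ± 8.11 to 86.2 ± 7.91 CPM. Uqcrc1 and Uqcrc2 had log2 fold changes of -0.99 and -1.04, close to those of the 2 redox subunits. They are named core proteins but are counted here with the accessory subunits. Uqcr10, one of the smallest subunits, fell least, at -0.51, and was not called with library totals alone (0.11). Within complex III the 7 other nuclear subunits apart from the 2 redox proteins ranged from -1.04 to -0.51.

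The catalytic subunits of complex IV are mitochondrially encoded, and the 11 nuclear ones surround them. All 11 fell, against 26.6% of all tested genes, in a range from -0.99 to -0.43. With library totals alone 1 fell (Cox7a2), against 8.96% of all tested genes, 1 rose (Cox7a2l), against 58.9%, and 9 did not pass. Cox4i1, the main regulatory subunit, was at 278, 287, 280.1 and 314 CPM in controls and 194, 169.8, 176 and 157 CPM in DDC (edgeR log2 fold change -0.73 with SE 0.08, adjusted p = 3.16e-05). Its DDC libraries were all under the lowest control. Cox5a and Cox5b, subunits on the matrix side, had log2 fold changes of -0.68 and -0.70, and the ubiquitous forms Cox6a1, Cox6b1, Cox6c, Cox7b, Cox7c and Cox8a lay between -0.79 and -0.61.

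The ends of the complex IV range were held by a pair of related genes. Cox7a2, the form of the subunit used in liver, fell 1.99-fold from 64.6 ± 7.73 to 32.4 ± 4.87 CPM (edgeR log2 fold change -0.99 with SE 0.12, adjusted p = 7.81e-05). Cox7a2l, whose protein (also called SCAF1) joins complex III to complex IV in supercomplexes, was at 91.9, 78.7, 76.9 and 83.8 CPM in controls and 58.7, 63.8, 60.7 and 62.7 CPM in DDC. It fell 1.35-fold with TMM (log2 fold change -0.43, edgeR adjusted p = 0.000424) and was higher with library totals alone (0.19, edgeR adjusted p = 0.0244). The distance between the 2 log2 fold changes is the same under either scaling, since a change of scaling shifts all genes nearly alike. It was not tested by itself.

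Complex V, the ATP synthase, has a soluble head that makes ATP, a central and a peripheral stalk, and a ring of c subunits that turns in the membrane. All 15 nuclear subunits fell, against 26.6% of all tested genes. The median was -1.07 for the 5 subunits of the head and central stalk, -1.0 for the 3 c-ring genes, -0.93 for the 4 of the peripheral stalk and -0.87 for the 3 small membrane subunits. Atp5b, the catalytic beta subunit, was at 1438, 1329, 1452 and 1342 CPM in controls 1 to 4 and 768, 639, 576 and 599.8 CPM in DDC 1 to 4 (edgeR log2 fold change -1.11 with SE 0.10, adjusted p = 8.23e-06). All DDC libraries were under all controls. Atp5a1, the alpha subunit, fell 2.13-fold and the gamma subunit Atp5c1, the rotating shaft, 2.10-fold. By FPKM, Atp5a1 (287 in controls and 206 in DDC) and Atp5b (256 and 182) were the most abundant of the 89 nuclear genes in both groups. The small membrane subunits Atp5j2, Atp5k and Atp5l had log2 fold changes of -0.87, -1.0 and -0.69, and with library totals alone their values, which did not pass, were -0.24, -0.38 and -0.07.

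The c ring is encoded by 3 genes, Atp5g1, Atp5g2 and Atp5g3, that differ in their import sequences and make the same mature protein. Atp5g1 and Atp5g3 fell by similar amounts (-1.03 and -1.0), and Atp5g2 fell less (-0.54, SE 0.06). Of the FPKM sum of the 3 genes, a ratio free of scaling, Atp5g2 took 22.4, 23.1, 23.2 and 24.1% in controls 1 to 4 and 27.4, 29.1, 30.3 and 31.0% in DDC 1 to 4. Atp5g3 took 67.4, 67.7, 66.3 and 67.1% in controls and 65.5, 62.0, 59.8 and 60.1% in DDC. For both genes the groups did not overlap, so Atp5g2 held a larger and Atp5g3 a smaller part of the c-ring transcripts in every DDC library. Atp5g1 took 9.67 ± 0.818% and 8.73 ± 1.17%, and its groups overlapped. With library totals alone Atp5g2 was at 0.08 and did not pass.

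The share of counts held by the 13 mitochondrially encoded messages overlapped between the groups. They took 4.90, 6.32, 5.28 and 6.13% of the counts of controls 1 to 4 and 6.14, 5.64, 5.71 and 5.58% of those of DDC 1 to 4, with means of 5.66 ± 0.681% and 5.77 ± 0.256% (SD, n = 4 each). The controls spread over a wider range than the DDC libraries. The ratio of mitochondrially encoded to nuclear-encoded counts was 5.78, 8.28, 6.23 and 7.60 in controls and 8.33, 8.88, 9.05 and 9.25 in DDC. It was higher in every DDC library than in any control, with means of 6.97 ± 1.17 and 8.87 ± 0.395, although DDC 1 was just above control 2. These values come from poly(A)-selected RNA.

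**Figure D2:**
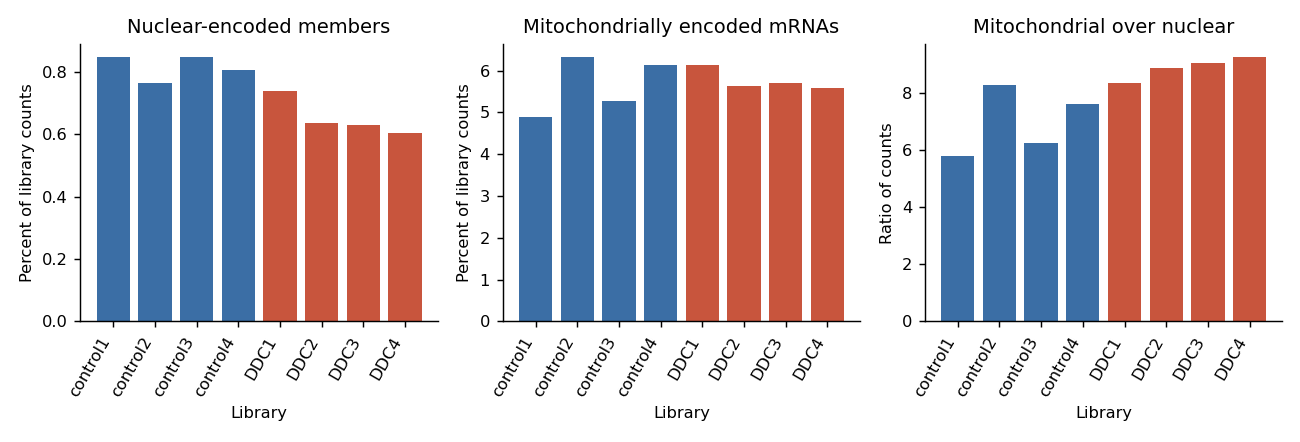
Percent of library counts taken by the 89 nuclear genes (left) and by the 13 mitochondrially encoded mRNAs (middle), and the ratio of the second to the first (right), 1 bar per library, controls in blue and DDC in red. The nuclear share is lower in every DDC library than in any control, the mitochondrial shares of the DDC libraries lie within those of the controls (4.90% to 6.32%), and the ratio is higher in every DDC library.

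Relative to the bulk of genes, that is with TMM, 11 of the 13 messages fell, against 26.6% of all tested genes, and mt-Nd5 and mt-Nd6 did not pass. The median log2 fold change was -0.63, and with library totals alone it was -0.01, with mt-Nd3 lower (1 of 13, against 8.96% of all tested genes), mt-Nd1, mt-Nd5 and mt-Nd6 higher (3 of 13, against 58.9%) and 9 not passing. Its difference from the median of all genes was -0.71 under both scalings, as a change of scaling shifts all genes nearly alike. mt-Co1, the catalytic subunit of complex IV and by FPKM the most abundant of the 13 (12497 in controls and 12319 in DDC), was at 21830, 27457, 23312 and 26521 CPM in controls and 16138, 16075, 15648 and 15863 CPM in DDC. Its groups did not overlap (edgeR log2 fold change -0.64 with SE 0.08, adjusted p = 0.000132). mt-Co2 and mt-Co3, the other core subunits of complex IV, had log2 fold changes of -0.63 and -0.76. mt-Cytb, cytochrome b of complex III, was at -0.78, and mt-Atp6 and mt-Atp8, the membrane subunits of complex V whose genes overlap, at -0.63 and -0.52.

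The 7 mitochondrially encoded subunits of complex I, which form its proton-pumping membrane arm, spread most. mt-Nd3 fell furthest, from 152, 162, 147 and 198 CPM in controls to 97.9, 80.5, 83.2 and 71.9 CPM in DDC (edgeR log2 fold change -0.98 with SE 0.12, adjusted p = 7.94e-05), and was the 1 message of the 13 called lower with library totals alone (-0.36). mt-Nd2, mt-Nd4 and mt-Nd4l had log2 fold changes of -0.71, -0.68 and -0.57. mt-Nd1 was at 4355, 4938, 4599.6 and 4781 CPM in controls and 3728, 3963, 3842 and 3869.7 CPM in DDC. It fell 1.21-fold with TMM (edgeR adjusted p = 0.00430) and rose with library totals alone (0.34, edgeR adjusted p = 0.000855). Its DDC libraries differed little among themselves.

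mt-Nd5 and mt-Nd6, neighbours whose genes meet tail to tail, were the 2 messages without a call. mt-Nd5 was at 2455, 4549, 2738 and 4154 CPM in controls 1 to 4 and 4049.7, 3379.8, 3228 and 3163 CPM in DDC 1 to 4 (edgeR log2 fold change -0.01 with SE 0.20, adjusted p = 0.976). mt-Nd6, the only message of the light strand, was at 607, 1066, 611 and 1011 CPM in controls and 960.3, 747, 749 and 735 CPM in DDC (edgeR log2 fold change -0.05 with SE 0.20, adjusted p = 0.857). For both genes controls 2 and 4 were high and controls 1 and 3 were low, with the DDC libraries between them. The spread among the controls was wider than the distance between the group means. The 2 low controls and the 2 high controls were each left out, a choice made from these values, which by itself fixes the direction. Without controls 1 and 3 the log2 fold changes were -0.34 for mt-Nd5 and -0.39 for mt-Nd6, and without controls 2 and 4 they were 0.40 and 0.38.

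**Figure D3:**
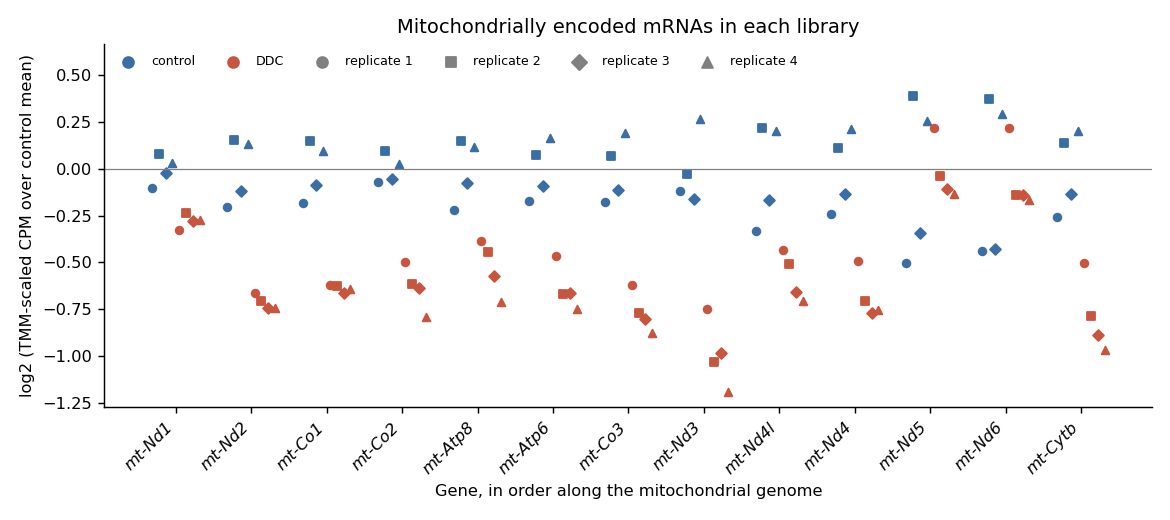
TMM-scaled CPM of the 13 mitochondrially encoded mRNAs in each library, as log2 of the value over the control mean, in order along the mitochondrial genome, controls in blue and DDC in red with 1 marker shape per replicate number. For 11 genes all DDC libraries lie under all controls, and for mt-Nd5 and mt-Nd6 the DDC libraries lie within the spread of the controls.

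Ratios between mitochondrial messages within a library are free of scaling. The count of mt-Nd5 over that of mt-Co1 was 0.112, 0.166, 0.117 and 0.157 in controls 1 to 4 and 0.251, 0.210, 0.206 and 0.199 in DDC 1 to 4. Here the groups did not overlap, and the mean went from 0.138 ± 0.0270 to 0.217 ± 0.0233. For mt-Nd6 over mt-Co1 the ratio was 0.0278, 0.0388, 0.0262 and 0.0381 in controls and 0.0595, 0.0465, 0.0479 and 0.0463 in DDC. For mt-Nd1 over mt-Co1 it was 0.200, 0.180, 0.197 and 0.180 in controls and 0.231, 0.247, 0.246 and 0.244 in DDC. All 3 ratios were higher in every DDC library than in any control. mt-Nd2 over mt-Co1 was lower in every DDC library (0.224 ± 0.00461 in controls and 0.212 ± 0.00347 in DDC), and the ratios of the other 8 messages overlapped. The mitochondrial rRNAs, of which poly(A) selection keeps only a part, took 0.115 ± 0.0288% of counts in controls and 0.0575 ± 0.00220% in DDC, also without overlap.

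Libraries of a group kept a common order over many of the genes. Control 2 was the lowest control for 72 of the 88 tested nuclear genes, and DDC 1 the highest DDC library for 71 and DDC 4 the lowest for 63. The median deviation from the group mean was -0.148 on the log2 scale for control 2 and 0.182 for DDC 1. Among the 13 mitochondrial messages control 1 was the lowest control for 12, controls 2 and 4 the highest for 8 and 5, and DDC 1 the highest DDC library for 12. Control 2 was thus low for nuclear and high for mitochondrial messages. It also stood above the other controls in some markers of smooth muscle and bile ducts. Myh11 was at 51.2 CPM against 4.52 to 5.74 CPM and Cnn1 at 13.8 against 0 to 0.194 CPM. Acta2 was at 56.2 against 4.09 to 6.11 CPM and Krt19 at 60.7 against 5.37 to 13.3 CPM. Krt7, Epcam and Cftr were also highest in control 2 among the controls. Des, Rgs5, Notch3, Kcnj8, Sox9 and Spp1 were not, nor were the stellate cell genes listed with Acta2. The part of these markers in the levels of nuclear messages in control 2 was not tested. Without DDC 1, 80 of the tested nuclear genes and 11 of the mitochondrial ones fell, beside 27.3% of all tested genes, and 3 nuclear genes rose (Cox8c, Cox6b2 and Cox7b2), beside 30.7%.

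Isoforms of restricted tissues had other patterns than the subunits they replace. Cox6a2, Cox7a1 and Cox8b are the forms of complex IV subunits used in heart and skeletal muscle. Cox6a2 was at 4.89, 6.23, 4.66 and 10.6 CPM in controls 1 to 4, 6.18 CPM in DDC 1 and 1.06, 0.965 and 1.05 CPM in DDC 2 to 4. DDC 1 thus lay within the controls and the other DDC libraries under them, and the test did not pass (edgeR log2 fold change -1.51 with SE 0.67, adjusted p = 0.0825). With all libraries Cox7a1 (-1.23, edgeR adjusted p = 0.110) and Cox8b (-1.39, edgeR adjusted p = 0.213) did not pass either. DDC 1 was the highest DDC library for each of these genes, so leaving it out by itself moves their values down. Without DDC 1 Cox6a2 was lower (-2.70, edgeR adjusted p = 7.56e-05), and so were Cox7a1 (-2.16, adjusted p = 0.00203) and Cox8b (-2.39, adjusted p = 0.0419). Cox7a1 was at 1.11, 1.29, 1.69 and 2.64 CPM in controls and 1.74, 0.450, 0.463 and 0.228 CPM in DDC, and Cox8b at 0.601, 0.764, 0.665 and 0.784 CPM in controls and 0.671, 0.213, 0.193 and 0 CPM in DDC. Of the FPKM sum of Cox6a1 and Cox6a2, the muscle form took 5.47, 6.60, 5.18 and 9.63% in controls and 8.57, 2.01, 1.83 and 2.06% in DDC.

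Of the 5 listed markers of heart and skeletal muscle in the table, Myh6, Ckm and Acta1 were high and low in the same libraries. Myh6, the cardiac alpha myosin heavy chain, was at 427, 567, 508 and 882 CPM in controls 1 to 4 and 603, 117, 106 and 90.7 CPM in DDC 1 to 4. Muscle creatine kinase, Ckm, was at 25.0, 34.9, 30.3 and 51.5 CPM in controls and 35.0, 5.17, 6.24 and 5.35 CPM in DDC. Both were high in the controls and DDC 1 and low in DDC 2 to 4, as was the skeletal actin Acta1 (3.22 to 6.89 CPM in controls, 5.86 CPM in DDC 1 and 0.811 to 1.05 CPM in DDC 2 to 4). Actn3 and Tnnt3, genes of fast skeletal muscle, were near 0 and did not follow that split. Actn3 was at most 0.274 CPM in controls and 0.414 CPM in DDC, and Tnnt3 was at 0 in DDC 1 to 4 and in 2 controls. The summed level of the 5 markers, which is mostly Myh6, was 455 to 941 CPM in controls, 645 CPM in DDC 1 and 97.4 to 123 CPM in DDC 2 to 4. Each had counts in at least 1 library. The 4 that were tested did not pass with all libraries (for Ckm and Myh6, edgeR adjusted p = 0.122 and 0.128). Their part in the values of the 3 isoforms was not tested.

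The testis forms Cox8c, Cox6b2 and Cox7b2 were low throughout and went the other way. Cox8c was at 0.310, 0.157, 0.323 and 0.227 CPM in controls 1 to 4 and 0.206, 1.08, 1.47 and 1.5 CPM in DDC 1 to 4, from 8 to 152 counts a library. It rose with all libraries (edgeR log2 fold change 2.06 with SE 0.60, adjusted p = 0.0153), yet DDC 1 lay within the controls. Cox6b2 was at 0.465, 0.705, 0.684 and 0.908 CPM in controls and 0.735, 2.39, 2.16 and 2.05 CPM in DDC (edgeR log2 fold change 1.41 with SE 0.40, adjusted p = 0.0141), and DDC 1 again lay within the control range. These are the 2 of 88 tested nuclear genes that rose, against 30.2% of all tested genes. Cox7b2, the 1 gene of the 102 that did not pass the count filter, was at 0.0776, 0.0783, 0.171 and 0.0826 CPM in controls and 0.0516, 0.651, 0.367 and 0.499 CPM in DDC. Germ cell markers were high and low in the same libraries. Prm1, a sperm protamine, was at 4.17, 2.23, 4.11 and 3.32 CPM in controls and 2.31, 12.5, 11.2 and 15.3 CPM in DDC. The summed level of Prm1, Tnp1 and Acrv1 was 5.95 to 10.3 CPM in controls, 5.26 CPM in DDC 1 and 27.6 to 34.0 CPM in DDC 2 to 4. All 3 markers were called higher with all libraries, each had counts, and their part in the values of the isoforms was not tested. Without DDC 1, the lowest DDC library for both genes, the log2 fold changes were 2.38 for Cox8c and 1.65 for Cox6b2. That omission by itself moves the values up. The calls of Cox8c and Cox6b2 ended with limma voom (adjusted p = 0.147 and 0.0577), and neither gene passed a filter of 1 CPM in 4 libraries.

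**Figure D4:**
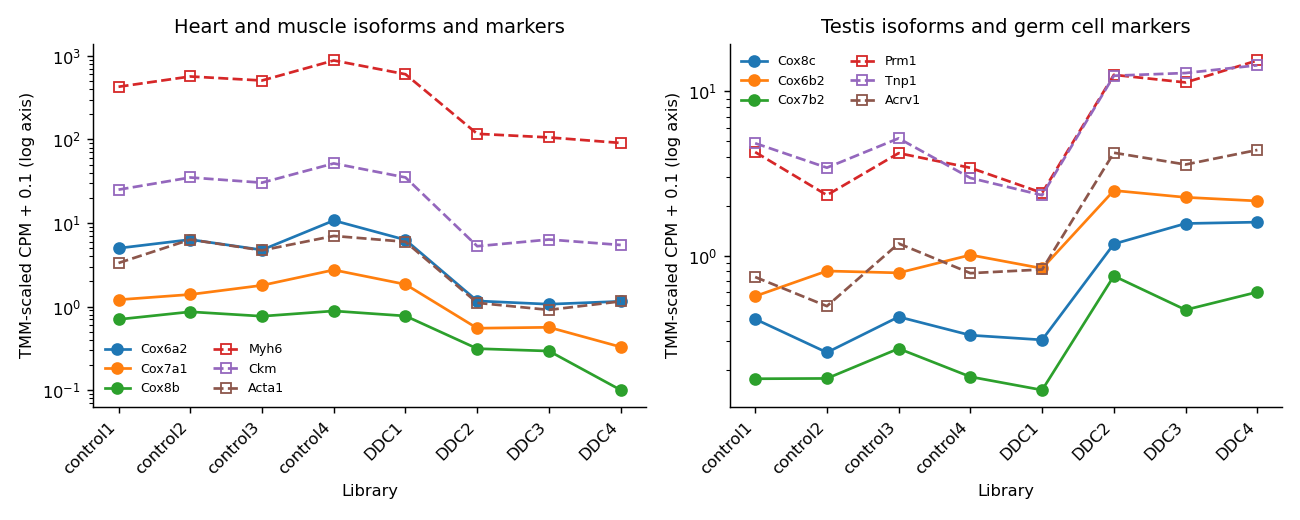
TMM-scaled CPM plus 0.1, on log axes, of the heart and muscle isoforms with 3 muscle markers (left) and of the testis isoforms with 3 germ cell markers (right) in each library. Filled circles are isoforms, open squares are markers, and lines join values of 1 gene. DDC 1 lies with the controls in both panels, with Myh6 at 603 CPM against 90.7 to 117 CPM in DDC 2 to 4.

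The 2 remaining isoforms respond to oxygen in other tissues, and neither passed. Ndufa4l2 was at 2.06, 1.55, 1.62 and 1.92 CPM in controls and 1.37, 1.76, 1.40 and 1.94 CPM in DDC (edgeR log2 fold change -0.14 with SE 0.23, adjusted p = 0.621). Cox4i2 had a log2 fold change of 0.57 with an SE of 0.91 at levels of at most 0.343 CPM, a change smaller than its SE. Of the 4 assembly factors in the set, Cox11, a copper chaperone, fell (-0.57, edgeR adjusted p = 0.00546), and Cox10 (-0.15), Cox15 (0.16) and Cox17 (-0.11) did not pass. Cox10 and Cox15 make the heme a of complex IV. With library totals alone those 3 were higher, from 0.47 to 0.78, and Cox11 did not pass (0.06). The pseudogene Ndufb4c was at -0.95, near the -0.78 of Ndufb4, whose sequence it resembles, so reads may be shared between them.

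Other genes of the pathway were taken from lists, whose counts stand beside the 26.6% of all tested genes that fell and the 30.2% that rose. Assembly factors had medians nearer to that of all genes than the subunits did. Of 17 tested for complex I 8 fell, with a median of -0.35 (0.27 with library totals alone), and of 21 for complex IV 10 fell, with a median of -0.24 (0.38 with library totals alone). For complexes II, III and V, 2 of 4, 2 of 6 and 2 of 4 fell, and 1 rose for complex II (Sdhaf1, 0.57) and 1 for complex V. With library totals alone 0, 1 and 0 of these were lower and 2, 2 and 2 higher, with medians of 0.35, 0.40 and 0.41. Over all tested genes 8.96% were then lower and 58.9% higher. Surf1, needed for complex IV assembly, fell 2.07-fold (edgeR adjusted p = 1.66e-06), and Dmac2, of complex I, had a larger fall than any structural subunit, 3.55-fold from 58.8 ± 4.43 to 16.5 ± 0.730 CPM. Atpif1, the inhibitor that stops the ATP synthase from running backwards, was the member that rose on the complex V list, from 7.85 ± 1.10 to 12.8 ± 2.60 CPM (edgeR log2 fold change 0.71 with SE 0.16, adjusted p = 0.00389), without overlap. The complex IV list includes Cox10, Cox11, Cox15 and Cox17.

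Electron carriers and coenzyme Q synthesis fell in 12 of 17 cases and rose in 2, with a median of -0.63 (-0.01 with library totals alone). The genes that bring electrons from fatty acid oxidation fell further than most subunits: Etfa fell by 1.34, Etfb fell by 1.35 and Etfdh fell by 1.39 on the log2 scale. Coq10b, a coenzyme Q binding protein, had the largest fall of the list, 2.64-fold from 110.1 ± 6.30 to 41.6 ± 5.83 CPM. Cytochrome c itself, Cycs, was at 134, 113, 140.3 and 132 CPM in controls and 92.7, 88.5, 79.6 and 74.7 CPM in DDC (edgeR log2 fold change -0.63 with SE 0.09, adjusted p = 0.000263). Its groups did not overlap, and with library totals alone its log2 fold change was -0.01. Pdss1, which makes the side chain of coenzyme Q, rose 1.90-fold at a low level (edgeR adjusted p = 0.00413).

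Of 16 genes that maintain and transcribe mitochondrial DNA 7 fell, with a median of -0.28 that became 0.34 with library totals alone. Tfam, which packages the genome and starts its transcription, was at 46.5, 49.3, 47.0 and 42.7 CPM in controls and 29.4, 28.8, 30.5 and 31.6 CPM in DDC, with no overlap (edgeR log2 fold change -0.62 with SE 0.06, adjusted p = 1.95e-05), and with library totals alone the change rounded to 0. Polrmt, the mitochondrial RNA polymerase, had a log2 fold change of -0.42 that became 0.20, without a call, with library totals alone, and Polg2, the accessory subunit of the DNA polymerase, fell 2.73-fold. Mitochondrial RNA processing genes fell in 11 of 17 cases and rose in 1, Rexo2 (0.28), with a median of -0.27 (0.35 with library totals alone). Lrpprc, which stabilizes mitochondrial mRNAs and their poly(A) tails, fell 1.91-fold from 141 ± 4.96 to 74.0 ± 5.69 CPM (edgeR adjusted p = 2.40e-06), and Hsd17b10, a subunit of the mitochondrial RNase P, fell 2.25-fold. Among 81 mitochondrial ribosomal proteins tested 50 fell and 2 rose, with a median of -0.35 (0.28 with library totals alone, where 45 of the 81 rose, against 58.9% of all tested genes). Among 24 import genes 11 fell and 2 rose, with a median of -0.31 (0.31 with library totals alone). Tomm5, one of the 2 that rose there, lost its call when any of control 1, control 2, DDC 2 or DDC 3 was left out (adjusted p from 0.0637 to 0.0773).

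Nuclear regulators of respiratory genes fell in 12 of 20 cases and rose in 2, with a median of -0.74 (-0.11 with library totals alone). The coactivator Ppargc1a was at 44.4, 47.5, 45.2 and 46.9 CPM in controls 1 to 4 and 27.9, 6.49, 6.77 and 6.22 CPM in DDC 1 to 4 (edgeR log2 fold change -1.96 with SE 0.54, adjusted p = 0.0163). All DDC libraries were lower than all controls, DDC 1 by the least, and without DDC 1 the log2 fold change was -2.84. Its call ended without controls 1 and 3 (-2.0, edgeR adjusted p = 0.0632) and without controls 2 and 4 (-1.93, edgeR adjusted p = 0.0825). Its relative Ppargc1b fell 4.88-fold from 8.75 ± 1.49 to 1.79 ± 0.552 CPM. Ppara, the receptor that drives fatty acid oxidation genes, fell 5.29-fold, and Esrrg, an estrogen-related receptor, had the largest fall of the list, from 3.31 ± 0.819 to 0.494 ± 0.568 CPM (log2 fold change -2.75, SE 0.67, and -3.99 without DDC 1). Esrra had a smaller log2 fold change (-0.43, and 0.20 without a call with library totals alone). Gabpa, the DNA-binding subunit of GABP, fell by 0.82 on the log2 scale (-0.20 without a call with library totals alone). Nrf1 did not pass with TMM (-0.05, SE 0.08, edgeR adjusted p = 0.604) and was higher with library totals alone (0.57). Nuclear subunits with the NRF1 core in their promoter window had a median log2 fold change of -0.80 over 25 genes and those without a median of -0.78 over 39. For its palindromic form the medians with and without it were -0.70 over 9 and -0.81 over 55 genes. For the GABP letters they were -0.84 over 16 and -0.79 over 48 genes, for YY1 -0.86 over 10 and -0.78 over 54 genes and for the estrogen-related receptors -0.82 over 4 and -0.79 over 60 genes. These differences went in both directions and were not tested.

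Carriers, porins, uncoupling proteins and a few other mitochondrial proteins of the matrix and inner membrane fell in 10 of 15 cases and rose in 1, with a median of -0.56 (0.06 with library totals alone). The gene that rose was Ucp2, an uncoupling protein expressed in macrophages as well as other cells, at 37.4, 55.4, 39.5 and 44.8 CPM in controls and 148, 122, 133 and 129 CPM in DDC, a 3.00-fold rise without overlap (edgeR log2 fold change 1.59 with SE 0.12, adjusted p = 4.27e-06). Hspd1, the mitochondrial chaperonin, fell 2.44-fold. Subunits of the V-ATPase, the proton pump of lysosomes that shares the pathway annotation but is not mitochondrial, went the other way. Of 20 tested, 11 rose and 6 fell, with a median of 0.26 (0.88 with library totals alone). Atp6v0d2, its isoform of macrophages and osteoclasts, rose 6.42-fold from 6.86 ± 3.94 to 44.1 ± 2.97 CPM, and Tcirg1, the isoform of osteoclasts and immune cells, 1.95-fold. The macrophage markers given above were higher in the same libraries, and their part in the rise of these 3 genes was not tested. Among the 4 other genes of the annotation 3 fell, Lhpp 3.37-fold.

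**Figure D5:**
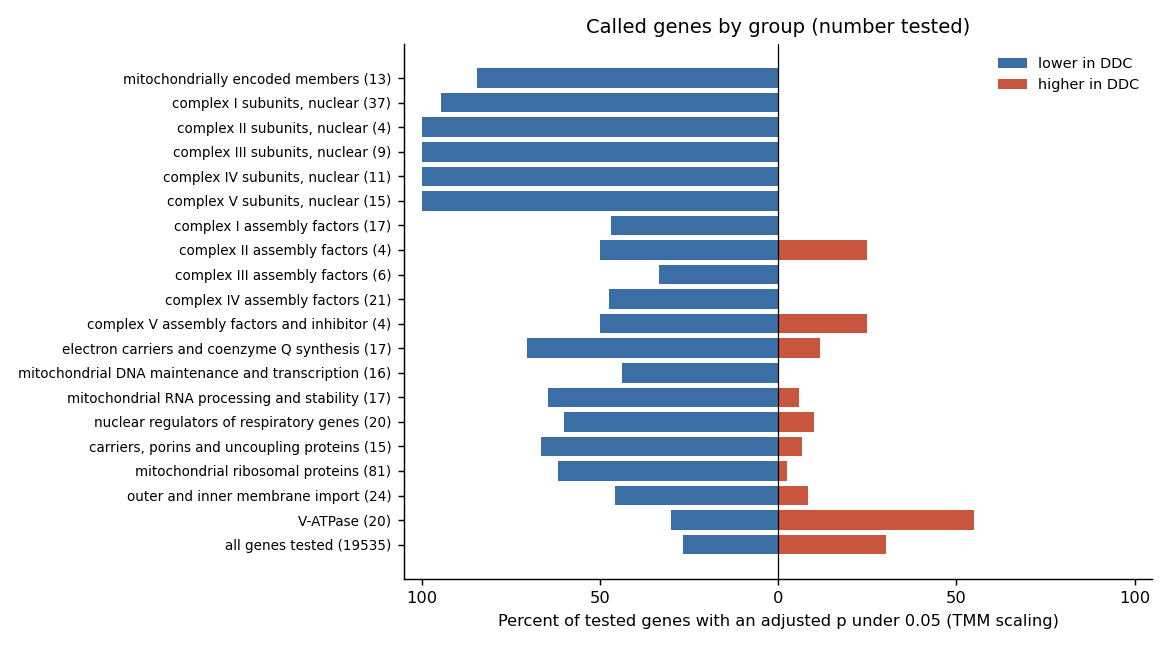
Percent of tested genes called lower (blue, to the left) and higher (red, to the right) in DDC with TMM scaling, for the structural subunits by complex, the mitochondrially encoded messages, the lists of other mitochondrial genes and all tested genes, with the number tested in parentheses. All nuclear subunits of complexes II to V were lower, against 26.6% of all tested genes, and the V-ATPase was the list with more genes higher than lower.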

How the data were processed

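Poly(A)-selected liver RNA of 8 mice, 4 control and 4 DDC, was sequenced from both ends as second-strand dUTP libraries, per the labels' protocols. The authors deposited 1 table of raw read counts per gene and 1 of FPKM. The submitters' processing notes name cutadapt, FastQC, HISAT2, StringTie and DESeq2, and the builds GRCm38 and mm10, without versions. The strand setting of the counting was not given in the sources used here. Hence overlapping genes, antisense pairs and near-identical pseudogenes are uncertain. All libraries carry the same batch label, so no batch term could be fitted. That label does not show whether the libraries were handled together. DDC 1 lay with the controls in heart muscle and germ cell markers, and the source of that split was not tested.

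The counts were tested with edgeR 4.0.16 in R 4.3.3 (TMM, filterByExpr, robust quasi-likelihood fit, two-sided, Benjamini-Hochberg over 19535 genes). Each replicate is 1 mouse per the labels. Libraries held 61179103 to 81664058 counts. Alternatives were other scalings, no count filter or 1 CPM in 4 libraries, DESeq2 1.42.0, limma 3.58.1 (voom on counts, and log2 of FPKM plus 0.1 or 1), a replicate block and leaving out each library. Omission of 2 controls at a time was added after the data were seen. The fits were tested on simulated data, where DESeq2 made more false calls than the limit set for it.

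The members and lists were chosen with earlier results of these data known. Genes described by name were all 13 mitochondrial messages, the 4 of complex II, isoform sets, the c-ring and small membrane subunits of complex V, in each complex the 3 called falls and 3 called rises of largest change and the 2 of highest FPKM, members left out by the filter or whose call changed when a library was left out, the largest called rise and fall of each list, and a few regulators, 87 genes in all. Other names were added after their values were seen. Subunit classes come from textbook knowledge. Listed symbols Coa1, Atp5if1, Mrpp3, Kiaa0391 and Ucp1 gave no tested gene. Mitochondrial sequences are GRCm38 and promoter windows RefSeq GRCm38.p6. Protein sequences were not used here, and 1 named gene is not reported here.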

Additional observations from a re-analysis of the deposited data

Results flagged for a closer look

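In each group of 4 libraries the highest and lowest values of the named member genes were compared with the nearest of the others, and a value was set aside when that gap took more of the whole range than Dixon's 95% value for 4 samples. Of 110 such group tests over 55 genes 12 exceeded it. The genes come from the same libraries and move together, so this count was not set against a chance rate. Some of the genes were named because leaving out a library changed their call. DDC 1 accounted for 7 of them, control 2 for 3 and control 3 for 2.

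DDC 1 was far above the other DDC libraries for Atp5c1 (141 CPM, others 123 to 124), Cox5a (67.8 CPM, others 46.7 to 49.5), Cox6a1 (68.0 CPM, others 51.4 to 53.5), Ndufc1 (4.93 CPM, others 4.30 to 4.37) and mt-Nd6 (960.3 CPM, others 735 to 749). It was also far above them for the muscle forms Cox6a2 (6.18 CPM, others 0.965 to 1.06) and Cox7a1 (1.74 CPM, others 0.228 to 0.463).

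Control 2 was far below the other controls for Cox5b (54.8 CPM, others 64.5 to 66.1), Ndufb9 (96.3 CPM, others 109 to 111) and Ndufs7 (46.9 CPM, others 52.4 to 53.4). Control 3 was far above the other controls for Atp5k (10.9 CPM, others 8.23 to 8.44) and Cox7b2 (0.171 CPM, others 0.0776 to 0.0826), the second a level of a few reads per library.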

How the results depend on the processing

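The scaling was the choice that moved most results. With library totals alone, limma on log2(FPKM + 0.1), limma on log2(FPKM + 1) and totals without the 20 most abundant genes, in that order, genes called higher numbered 11501, 11976, 11987 and 11074 and genes called lower 1750, 1826, 1815 and 1893, against 5893 and 5205 with TMM. In that order the nuclear median was -0.17, -0.18, -0.16 and -0.22, with 8, 9, 9 and 7 nuclear genes called higher and 30, 33, 33 and 35 lower. The mitochondrial median was -0.01, -0.01, -0.01 and -0.05, with 3 genes called higher and 1 lower under each. Signs reversed in that order for Atp5g2 (0.08, 0.08, 0.08, 0.04), Atp6v0d1 (0.15, 0.14, 0.14, 0.10), Cox7a2l (0.19, 0.19, 0.19, 0.15), Esrra (0.20, 0.19, 0.17, 0.15), Ndufa7 (0.38, 0.38, 0.36, 0.34), Ndufa8 (0.14, 0.15, 0.14, 0.10), Nrf1 (0.57, 0.52, 0.29, 0.53), Polrmt (0.20, 0.18, 0.15, 0.16), mt-Atp8 (0.10, 0.10, 0.10, 0.05), mt-Nd1 (0.34, 0.34, 0.34, 0.30), mt-Nd4l (0.05, 0.06, 0.06, 0.01), mt-Nd5 (0.61, 0.65, 0.65, 0.57) and mt-Nd6 (0.58, 0.61, 0.61, 0.53), and for Ndufa4l2 (0.48, 0.45, 0.29, 0.44) and Ndufc1 (0.20, 0.21, 0.16, 0.15), where Ndufa4l2 passed only on FPKM and Ndufc1 under none of the 4. The signs of mt-Nd5, mt-Nd6 and Nrf1, within 0.05 of 0 with TMM, also changed without a call under some other settings. These settings leave out the composition factors, which differ between the groups. The distance of the nuclear median from that of all genes was -0.47 and of the mitochondrial -0.32 with limma on log2(FPKM + 1), where the added 1 shrinks low genes, and -1.08 and -0.92 with no count filter.

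The pairs of controls were chosen from their mitochondrial levels, so the direction in which mitochondrial values move without them is fixed by that choice. Without controls 1 and 3 the mitochondrial median was -0.77, its distance from all genes -0.90, and no (0) nuclear gene was called higher. Without controls 2 and 4 the mitochondrial median was -0.51, the nuclear distance -1.01, 2 mitochondrial genes were called higher (mt-Nd5 0.40, mt-Nd6 0.38) and 1 nuclear gene. Calls were lost without controls 1 and 3 and without controls 2 and 4 for Ppargc1a (edgeR adjusted p = 0.0632 and 0.0825) and Cox8c (0.0525 and 0.104), without controls 1 and 3 for Ppard (0.0619) and Cox6b2 (0.102), and without controls 2 and 4 for Tomm5 (0.123). Nuclear genes called higher numbered 0 with 1 CPM in 4 libraries, which leaves low genes untested, 0 with voom and 1 with the replicate block. Voom and DESeq2 called Cox6a2 lower, and voom also Cox7a1, whereas Cox6b2 and Cox8c lost their calls with voom. The cause of these changes was not tested.

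Leaving out 1 library at a time, nuclear genes called lower ranged from 76 to 80 and higher from 2 to 3, mitochondrial genes lower from 11 to 11 and higher from 0 to 0, and all genes higher from 5039 to 6228 and lower from 4593 to 5532. The nuclear median ranged from -0.88 to -0.73, the mitochondrial from -0.70 to -0.59, and their distances from all genes from -0.97 to -0.82 and from -0.79 to -0.67.

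The replicate numbers do not pair the mice: deviations of same-numbered libraries correlated at -0.215, -0.184, 0.029 and -0.047. With the replicate block 77 nuclear genes were called lower and 1 higher, 4810 of all genes higher and 4654 lower, Cox8c lost its call (1.85, edgeR adjusted p = 0.0788) and Cox6a2 was called lower (-2.02, edgeR adjusted p = 0.0481). At this depth Cox7b2 did not pass the count filter, and the log2 fold change of Cox4i2, at levels under 1 CPM, had an SE of 0.91.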

Other observations

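Some members of the wider lists stood apart from their list. Mrpl38, a protein of the large mitochondrial ribosomal subunit, fell from 82.2 ± 8.23 to 36.2 ± 0.818 CPM (edgeR log2 fold change -1.18 with SE 0.07, adjusted p = 9.47e-07), whereas Mrpl19, of the same subunit, rose from 9.25 ± 0.681 to 12.8 ± 0.811 CPM (0.47, SE 0.09, edgeR adjusted p = 0.00181). The import chaperone Timm9 fell from 32.0 ± 4.75 to 14.6 ± 0.939 CPM (-1.14, edgeR adjusted p = 1.37e-05), and the complex III assembly factor Uqcc1 from 39.7 ± 0.751 to 20.3 ± 1.32 CPM (-0.97, edgeR adjusted p = 1.13e-06). These 3 falls also passed with library totals alone.

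The assembly factors Sdhaf3, of complex II, and Atpaf2, of complex V, had log2 fold changes of -0.65 (edgeR adjusted p = 0.00185) and -0.66 (edgeR adjusted p = 0.000174), and neither passed with library totals alone (-0.03 and -0.04). Among the regulators Ppard, a nuclear receptor related to Ppara, rose from 9.41 ± 1.32 to 12.9 ± 1.25 CPM (0.46, edgeR adjusted p = 0.0106), a call that ended without controls 1 and 3 (0.33, edgeR adjusted p = 0.0619). Atp6v0d1, the widely expressed d subunit of the V-ATPase, fell from 82.0 ± 6.99 to 58.9 ± 2.95 CPM with TMM (-0.48, edgeR adjusted p = 0.000341) and did not pass with library totals alone (0.15). The accessory complex I subunit Ndufa8 had a log2 fold change of -0.48 (SE 0.11, edgeR adjusted p = 0.00399) and one of 0.14 with library totals alone.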
